A study of Drosophila virilis and Drosophila willistoni and Drosophila miranda with 119 samples.

Results

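The mRNAs that encode subunits of the mitochondrial respiratory chain and of ATP synthase were followed between 2 stages of early Drosophila development. Members were chosen by gene symbol alone: ND- for complex I, Sdh with A, B, C or D for complex II, UQCR- for complex III, COX with a digit for complex IV, and ATPsyn for complex V. Of the 17674 genes in the wider of the authors' tables, 82 had such a symbol. They were 39 genes of complex I, 6 of complex II, 6 of complex III, 11 of complex IV and 20 of complex V.

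Single embryos of 14 Drosophila species were sequenced, 55 at stage 5 and 64 at stage 2, with 3 to 7 embryos per species and stage. At stage 5 the embryo is a cellularizing blastoderm whose own genome is active, and at stage 2 the embryo precedes zygotic transcription and holds mRNA from its mother. Both stages were used for D. ananassae, D. erecta, D. mauritiana, D. miranda, D. mojavensis, D. persimilis, D. pseudoobscura, D. santomea, D. sechellia, D. simulans, D. virilis, D. willistoni and D. yakuba, and stage 2 alone for D. melanogaster. No treatment, mutation or transgene is given for any species. For D. miranda the mothers were of genotype MSH22 and the fathers of genotype SP138, and for D. pseudoobscura the mothers were Flagstaff 14 and the fathers PP1134; no genotypes are given for the others. The stage 5 embryos of those crosses are titled latest5 and carry a sex, 1 D. pseudoobscura embryo is noted as possibly unfertilized, and the molecule of both species is given as total RNA against polyA RNA elsewhere. D. mojavensis, D. persimilis, D. santomea, D. sechellia and D. simulans were sequenced in a mix with D. melanogaster RNA at both stages, and D. virilis at stage 2 only.

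Complexes I to IV pass electrons from NADH and succinate to oxygen, and complexes I, III and IV pump protons as they do so. Complex V, the ATP synthase, uses the returning protons to make ATP, and complex II doubles as an enzyme of the citric acid cycle. Most subunits are encoded in the nucleus and imported, while a small set of core subunits is encoded by the mitochondrial genome, which the egg supplies together with its mitochondria.

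Each value is the authors' FPKM, a read density scaled by transcript length and library size, with the embryos of a species and stage already combined. Species therefore served as the replicates, the spread between embryos could not be measured, and the sequencing depth is unknown. Changes are stage 5 minus stage 2 within a species on the log2(FPKM+1) scale, which understates changes of mRNAs near 1 FPKM. A gene was called at a limma adjusted p under 0.05 (Benjamini-Hochberg over all genes tested) with a mean change of at least 1. In whole embryos, fewer cells or mitochondria of a kind and less RNA in each cannot be told apart.

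Of the 82 members, 57 could be tested: 31 of complex I, 4 of complex II, 4 of complex III, 7 of complex IV and 11 of complex V. Of the other 25, 11 had a mean below 1 FPKM, 9 had values in fewer than 10 species, and 5 were rows that hold D. melanogaster alone. D. mauritiana had values for 3 of the tested members, SdhA, SdhB and SdhC, so most members rest on 10 to 12 species. The 57 tested members were all subunits, and 17 of the 25 others were paralogs with an L in the symbol.

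On the deposited scale, 42 of the 57 tested members were called higher at stage 5 (73.7%) and 0 were called lower, against 30.9% of all 7225 genes tested called higher and 16.5% called lower. By limma without the threshold on size, 46 members were higher and 2, ND-75 and SdhA, were lower at an adjusted p under 0.05, and 47 were higher and 2 lower at an unadjusted p under 0.05. The median change of the members was 1.42, and that of all genes tested was 0.39. By complex, 22 of 31 members were called higher in complex I, 1 of 4 in complex II, 3 of 4 in complex III, 7 of 7 in complex IV and 9 of 11 in complex V. The change was upward in every species with a value for 34 members, which is 59.6% of those tested, against 23.3% of all genes. Under phylogenetic least squares, which allows for the shared ancestry of the species, 20 of the 42 were still called higher and 0 members lower, against 12.0% of all genes called higher and 1.84% lower in that fit.

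These calls depend on how the columns are scaled, because the total FPKM of genes below 100000 was itself 1.99 to 3.62 times higher at stage 5 than at stage 2 (median 2.64 over 12 species). With each species centred on its median change, 32 members were called higher and 2 lower (ND-75 and SdhA), against 22.1% of all genes called higher and 22.9% lower, with a member median of 1.04 beside 0.02 for all genes. After quantile normalization 0 were called higher and 6 lower by limma, against 17.9% of all genes called higher and 21.1% lower, with a member median of 0.28 beside 0.05. Without the threshold on size, 20 were then higher and 7 lower at an adjusted p under 0.05, and 23 higher and 7 lower at an unadjusted one. With columns brought to the same total, 0 were called higher and 7 lower by limma, against 8.56% of all genes called higher and 41.8% lower, with a member median of 0.17 beside -0.70 for all genes. Without the threshold on size, 16 were then higher and 10 lower at an adjusted p under 0.05, and 19 higher and 10 lower at an unadjusted one. The share of higher genes among all calls, over the whole table, was 65.2% as deposited, 49.2% after centring, 45.8% after quantile normalization and 17.0% at the same total. The median of complexes I, IV and V was above 0 and above that of all genes under all 4 scalings. The median of complex III was below 0 after quantile normalization (-0.10) and at the same total (-0.08), and that of complex II was below 0 under all 3 other scalings (-0.27, -0.61 and -1.20).

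**Figure D1:**
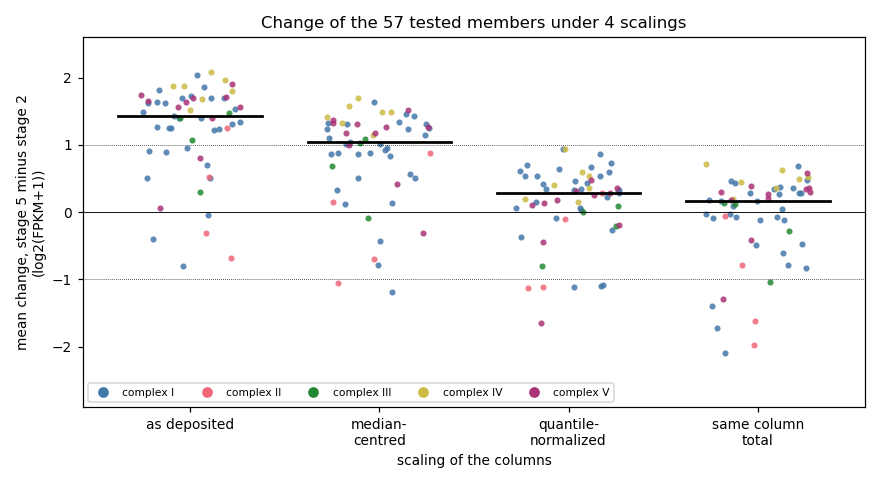
Mean change of each of the 57 tested members (points, coloured by complex) over species, as stage 5 minus stage 2 in log2(FPKM+1), under 4 scalings of the columns; black bars are medians over members and dotted lines mark a change of 1 in either direction. The median member is at 1.42 as deposited, 1.04 after centring, 0.28 after quantile normalization and 0.17 at the same column total, and SdhA of complex II lies below 0 under each.

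Measured as a share of that total, the members held 1.61% to 2.94% at stage 5 (median 2.11%) and 1.49% to 2.37% at stage 2 (median 1.90%), over the 12 species other than D. mauritiana. The share was higher at stage 5 in 9 of the 12 species and lower in 3, D. erecta, D. sechellia and D. simulans. It was almost the same at both stages in D. simulans (1.873% at stage 5 and 1.874% at stage 2) and D. yakuba (2.00% at stage 5 and 1.97% at stage 2). D. ananassae had the largest share at both stages, 2.94% at stage 5 and 2.37% at stage 2. The summed FPKM of the members was 14347 to 38519 at stage 5 (median 19844) and 4817 to 9577 at stage 2 (median 7576). Within a species this sum was 1.99 to 4.48 times higher at stage 5 (median 2.76). The total of genes below 100000 was 1.99 to 3.62 times higher (median 2.64), so the gap between the stages is not particular to the members. These sums and shares rest on 57 members with values in D. miranda and on 67 to 74 in the other 11 species, so only the stages within a species are like for like.

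The members were among the abundant mRNAs of the embryo at both stages. Their median FPKM over species was 251 at stage 5 and 82.2 at stage 2 for the median member, against 24.8 at stage 5 and 25.4 at stage 2 for the median of all genes tested. The median member stood at percentile 92.8 of all genes tested at stage 5 and at percentile 88.8 at stage 2. At stage 5, 55 of the 57 members were above the median gene, and at stage 2, 56 were. The median level of complex V was 654 FPKM at stage 5 and 175 FPKM at stage 2, and that of complex IV was 575 FPKM at stage 5 and 165 FPKM at stage 2. Complex III stood at 362 FPKM at stage 5 and 137 FPKM at stage 2, complex I at 182 FPKM at stage 5 and 72.7 FPKM at stage 2, and complex II at 83.5 FPKM at stage 5 and 57.2 FPKM at stage 2. The order of the complexes was thus V, IV, III, I, II at both stages, and the single members of neighbouring complexes overlapped.

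**Figure D2:**
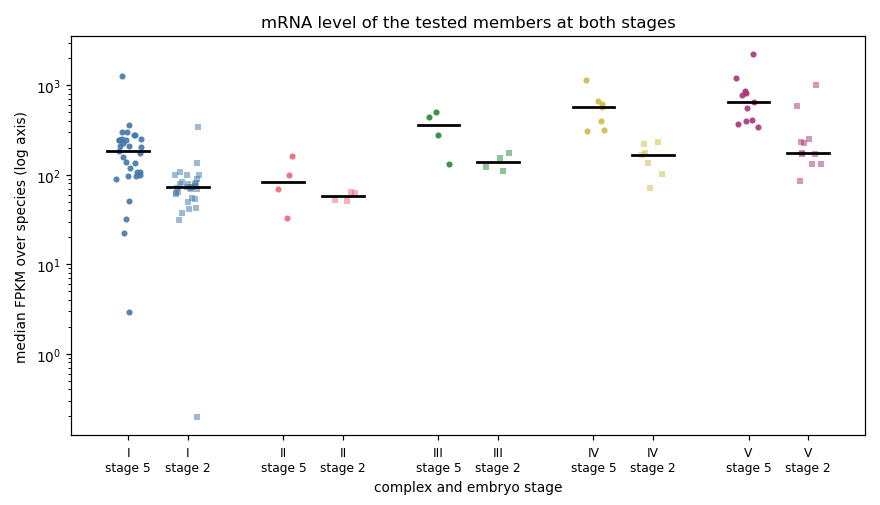
Median FPKM over species (log axis) of each tested member at stage 5 (circles, left of each pair) and stage 2 (squares, right), for complexes I to V; black bars are medians over members. The bars of complexes IV and V stand at 575 and 654 FPKM at stage 5 and at 165 and 175 FPKM at stage 2, while those of complex II stand at 83.5 FPKM at stage 5 and 57.2 FPKM at stage 2.

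Complex I, the NADH dehydrogenase, has a peripheral arm in which electrons pass along iron-sulfur clusters and a membrane arm that pumps protons. ND-49, a core subunit at the quinone site, changed most in this complex. It had 150 to 704 FPKM at stage 5 (median 279) and 42.2 to 106 FPKM at stage 2 (median 70.2) in 10 species. The lowest species at stage 5, D. willistoni, lay above the highest at stage 2, D. sechellia, so the stages did not overlap. The change was 2.03 ± 0.56 (SD, n = 10 species, limma adjusted p = 2.61e-07).

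The other core subunits of the peripheral arm were split in direction. ND-30 rose by 1.48 ± 0.56 (n = 11), ND-20 by 1.40 ± 0.66 (n = 12), ND-24 by 1.26 ± 0.78 (n = 12) and ND-23 by 1.21 ± 0.57 (n = 12), each upward in every species, although ND-23 (-0.12) and ND-24 (-0.076) turned downward at the same total. ND-51 binds NADH and FMN, the point where electrons enter. It had 23.0 to 149 FPKM at stage 5 (median 50.6) and 31.3 to 128 FPKM at stage 2 (median 71.2), with wide overlap of the stages. Its change of -0.40 ± 0.87 was downward in 8 of 12 species and was not called (limma adjusted p = 0.158).

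ND-75, the largest core subunit of that arm and the carrier of several iron-sulfur clusters, had the lowest change of all 57 members. It had 5.06 to 56.7 FPKM at stage 5 (median 22.5) and 15.3 to 59.4 FPKM at stage 2 (median 37.5) in 10 species. Only D. santomea and D. yakuba were higher at stage 5. Furthest down were D. persimilis, with 6.59 FPKM at stage 5 against 35.3 FPKM at stage 2, and D. pseudoobscura, with 5.06 FPKM against 15.3 FPKM. D. virilis was close to them, with 14.8 FPKM against 39.4 FPKM, and D. miranda, the other obscura species, had no value. The mean change of ND-75 was -0.80 ± 0.78 (n = 10, limma adjusted p = 0.0154), under the size needed for a call, and -1.19 after centring, where it was called lower.

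Of the 24 accessory subunits of complex I that were tested, ND-B12 (1.85 ± 0.47, n = 11), ND-SGDH (1.81 ± 0.47, n = 12) and ND-B16.6 (1.73 ± 0.51, n = 12) were among the largest risers, all upward in every species. ND-MLRQ, whose mammalian counterpart is now assigned to complex IV, was the most abundant ND- mRNA, at a median of 1257 FPKM at stage 5 and 338 FPKM at stage 2. Its range ran from 0.650 to 2494 FPKM at stage 5 and from 0.334 to 627 FPKM at stage 2, and both lowest values were of D. simulans. Its change was 1.70 ± 0.60 (n = 11, limma adjusted p = 5.29e-07), upward in all 11 species.

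ND-ACP, the mitochondrial acyl carrier protein, changed in both directions across species. It had 27.3 to 642 FPKM at stage 5 (median 96.0) and 37.6 to 191 FPKM at stage 2 (median 135). D. miranda was highest at stage 5 and D. yakuba lowest, and the stage 2 values lay inside that range. The change was -0.05 ± 1.28 (n = 12, limma adjusted p = 0.903), upward in 5 species and downward in 7.

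ND-42 had 4.42 to 418 FPKM at stage 5 (median 90.3) and 25.6 to 106 FPKM at stage 2 (median 55.3). D. ananassae stood apart, with 4.42 FPKM at stage 5 against 49.3 FPKM at stage 2, and its change of -3.21 kept the mean of 0.71 ± 1.42 under the size needed (n = 12, limma adjusted p = 0.102). ND-B8 was near 0 in many species. It had a median of 2.96 FPKM at stage 5 and 0.196 FPKM at stage 2, while the 3 obscura species and D. willistoni had 77.2 to 120 FPKM at stage 5 and 14.4 to 34.1 FPKM at stage 2.

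Complex II, succinate dehydrogenase, has 4 subunits, all of them tested, of which 1 was called. SdhA, the flavoprotein that oxidizes succinate, had 9.76 to 75.9 FPKM at stage 5 (median 33.0) and 31.5 to 80.8 FPKM at stage 2 (median 52.5) in 13 species. It was lower at stage 5 in 11 of the 13 species, with D. pseudoobscura and D. willistoni the exceptions, although the stages overlapped. The change was -0.68 ± 0.79 (n = 13, limma adjusted p = 0.0131), and -1.05 after centring, where it was called lower.

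SdhB, the iron-sulfur subunit, had 17.6 to 241 FPKM at stage 5 (median 98.2) and 25.2 to 150 FPKM at stage 2 (median 50.4). The change was 0.52 ± 1.07 (n = 13, limma adjusted p = 0.107), upward in 8 species and downward in 5. SdhC and SdhD anchor the enzyme in the membrane. SdhC rose by 1.26 ± 0.95 (n = 13, limma adjusted p = 0.000290), with 40.8 to 655 FPKM at stage 5 (median 163) and 45.8 to 172 FPKM at stage 2 (median 63.7), but it turned to -0.061 at the same total. SdhD changed by -0.32 ± 1.17 (n = 11, limma adjusted p = 0.394), from -2.42 in D. virilis to 1.54 in D. pseudoobscura.

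Complex III, the cytochrome bc1 complex, was covered by core and accessory subunits. UQCR-Q, an accessory subunit, had 218 to 1546 FPKM at stage 5 (median 502) and 119 to 238 FPKM at stage 2 (median 175), and rose by 1.47 ± 0.64 (n = 12, limma adjusted p = 2.29e-06) in every species. UQCR-11 rose by 1.40 ± 0.65 (n = 12), although it was listed at 0 at both stages in D. simulans. UQCR-6.4 rose by 1.07 ± 0.73 (n = 12), but its change was -0.20 after quantile normalization and -0.28 at the same total.

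UQCR-C1, a large core protein of complex III on the matrix side, was not called. It had 56.7 to 300 FPKM at stage 5 (median 130) and 76.7 to 132 FPKM at stage 2 (median 110), a spread of 1.73 times between the highest and lowest species at stage 2. The change was 0.30 ± 0.59 (n = 12, limma adjusted p = 0.139). UQCR-C2, the other core protein, had values in 9 species and was not tested; it was singled out after its values were seen. It had 24.3 to 200 FPKM at stage 5 (median 47.1) and 38.8 to 220 FPKM at stage 2 (median 51.9).

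Complex IV, cytochrome c oxidase, keeps its catalytic core in the mitochondrial genome, and the tested members are nuclear subunits around that core. All 7 rose, and all 7 were upward in every species with a value. COX7C had 77.4 to 3054 FPKM at stage 5 (median 1150) and 19.9 to 621 FPKM at stage 2 (median 232). D. miranda was lowest and D. santomea highest at both stages, and each of the 11 species was higher at stage 5. The change, 2.09 ± 0.43 (SD, n = 11, limma adjusted p = 2.71e-09), was the largest among the 57 members.

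COX4 had 333 to 1257 FPKM at stage 5 (median 575) and 80.1 to 285 FPKM at stage 2 (median 165), and the stages did not overlap. Its change was 1.87 ± 0.51 (n = 12, limma adjusted p = 1.38e-08). COX5B was the most even of the 57 members across species at stage 2, with 456 to 1272 FPKM at stage 5 and 165 to 246 FPKM at stage 2, again without overlap, and changed by 1.68 ± 0.39 (n = 10, limma adjusted p = 6.46e-08). The remaining 4 members of complex IV changed by 1.96 ± 0.66 (COX6B), 1.88 ± 0.69 (COX8), 1.801 ± 0.50 (COX5A) and 1.52 ± 0.69 (COX7A). All 7 stayed above 0 under the 4 scalings, with 7 of 7 called higher after centring but 0 after quantile normalization or at the same total.

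Complex V consists of a rotating catalytic head, a central stalk, a peripheral stalk and a membrane ring. ATPsynbeta, the catalytic subunit, was the most abundant member at stage 5. It had 549 to 3741 FPKM at stage 5 (median 2212) and 408 to 874 FPKM at stage 2 (median 593). D. simulans, at 549 FPKM, was the lowest species at stage 5, and the ranges of the stages overlapped. The change was 1.56 ± 0.71 (n = 11, limma adjusted p = 5.09e-06), upward in every species as deposited, with a mean of -0.20 after quantile normalization. ATPsyngamma, the shaft of the central stalk, changed by 0.80 ± 1.18 (n = 12, limma adjusted p = 0.0316), upward in 8 species, and was not called.

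ATPsynG, a membrane subunit, had 6.71 to 1602 FPKM at stage 5 (median 856) and 1.76 to 344 FPKM at stage 2 (median 233), with D. miranda far below the other species at both stages. Its change was 1.90 ± 0.38 (n = 12, limma adjusted p = 9.93e-10). The peripheral stalk subunits ATPsynD, ATPsynO, ATPsynB and ATPsynCF6 rose by 1.75 ± 0.51, 1.71 ± 0.49, 1.70 ± 0.39 and 1.65 ± 0.37 (n = 12 each), in every species. Of these, ATPsynB and ATPsynCF6 were singled out after their values were seen. ATPsynF, another membrane subunit, rose by 1.64 ± 0.89 (n = 12).

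ATPsynC, which forms the proton-conducting ring of the membrane part, did not share this pattern. It had 268 to 3235 FPKM at stage 5 (median 1216) and 453 to 1457 FPKM at stage 2 (median 999), the highest stage 2 median of all members. The change was 0.07 ± 1.40 (n = 12, limma adjusted p = 0.877), upward in 7 species and downward in 5, and its mean was below 0 under the 3 other scalings (-0.32, -1.65 and -1.29). The 5 downward species were D. erecta, D. santomea, D. sechellia, D. simulans and D. yakuba.

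**Figure D3:**
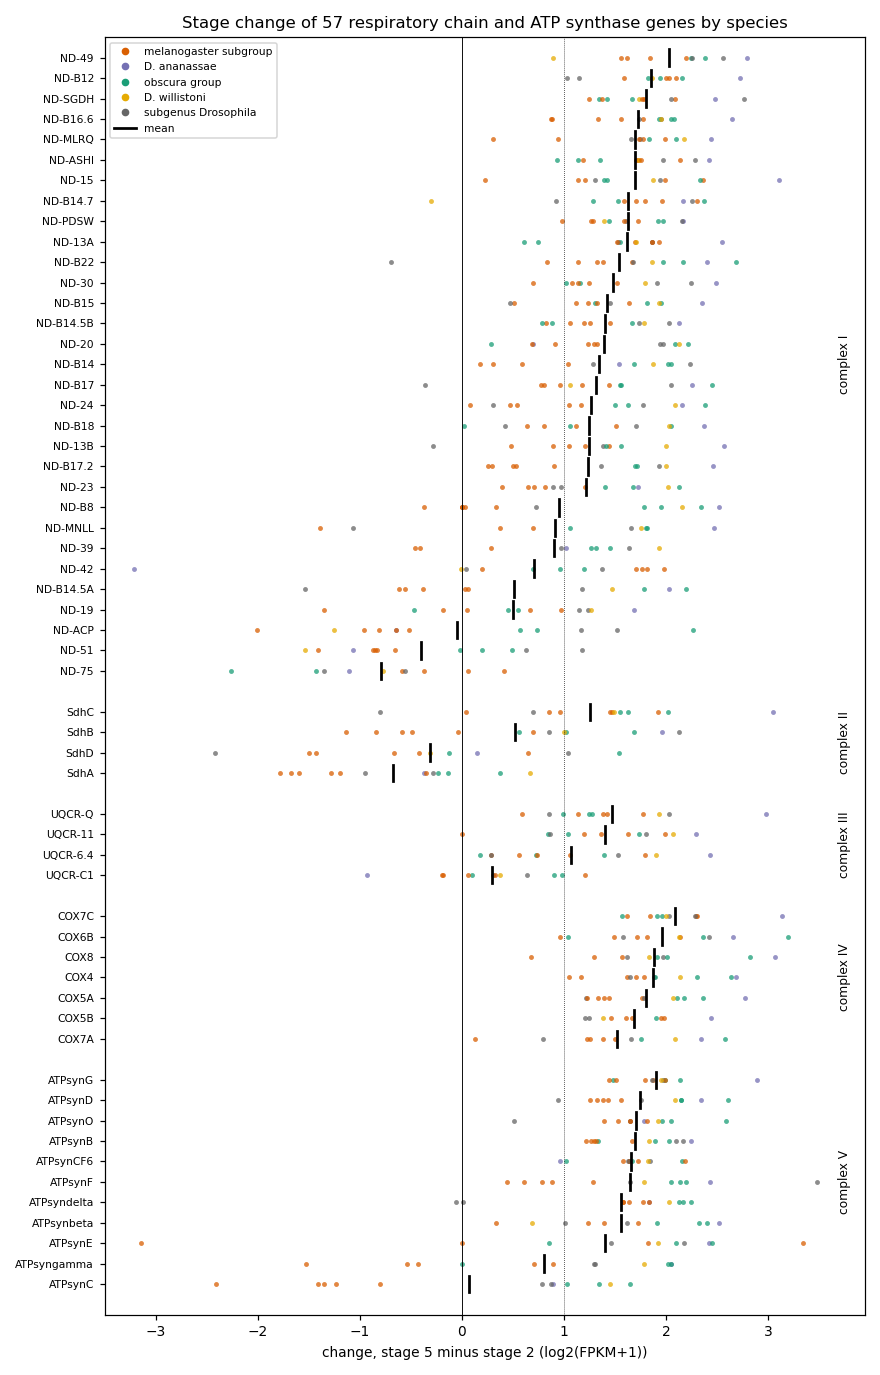
Change of each tested member in each species (points, coloured by clade), as stage 5 minus stage 2 in log2(FPKM+1) on the deposited scale; black bars are means over species and the dotted line marks a change of 1. Means run from -0.80 for ND-75 to 2.09 for COX7C, all 7 complex IV members have all points above 0, and the points of ATPsynC fall on both sides of 0.

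Members differed in how far the species spread. The median SD over species of the log2(FPKM+1) level was 0.94 at stage 5 and 0.53 at stage 2, and 52 of the 57 members (91.2%) were more spread at stage 5, against 79.5% of all 7225 genes tested. Among the members most even at stage 2 were COX5B, ND-PDSW, an accessory subunit of complex I chosen after its values were seen, and UQCR-C1. Their highest species exceeded the lowest by 1.49, 1.68 and 1.73 times at stage 2 and by 2.79, 2.10 and 5.29 times at stage 5.

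A few values stood far from the rest of their gene. Of 662 pairs of a tested member and a species, 10 were below 1 FPKM at both stages, and 5 of these were of ND-B8. The other 5 were ATPsyngamma and ND-20 in D. miranda, ATPsynE in D. santomea, and ND-MLRQ and UQCR-11 in D. simulans. ATPsynE, a membrane subunit of complex V called higher by limma (1.40 ± 1.74, n = 11) and singled out after its values were seen, was also low in D. erecta (0.000140 FPKM at stage 5 and 7.86 FPKM at stage 2) and D. yakuba (9.12 FPKM at stage 5 and 4.72e-27 FPKM at stage 2). Its median over all 11 species was 369 FPKM at stage 5 and 85.3 FPKM at stage 2. A failed estimate and a low mRNA level cannot be told apart in these values.

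The paralogs, marked by an L after the symbol of the parent gene, were scarce. Many such duplicates of nuclear mitochondrial genes in Drosophila are known for expression in the testis. Of the 15 with values in at least 3 species, 14 had a median below 1 FPKM at both stages. SdhAL had 0.163 to 4.497 FPKM at stage 5 (median 0.760) and a median of 0 at stage 2. COX7AL reached 6.72 FPKM at stage 5 and 1.62 FPKM at stage 2 in D. erecta, and ATPsynGL reached 8.13 FPKM at stage 5 in D. virilis. ND-20L, ND-24L, ND-49L, ND-51L2, SdhBL, COX4L, COX5BL, COX6AL and ATPsynbetaL stayed below 4 FPKM in every species at both stages, and ATPsynCF6L and ND-B14.5AL were listed at 0 throughout.

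By symbol a paralog, UQCR-14L was the exception and was as abundant as the subunits. It had 329 to 656 FPKM at stage 5 and 71.2 to 141 FPKM at stage 2 in D. erecta, D. mojavensis, D. persimilis, D. pseudoobscura and D. virilis. Each of the 5 species was higher at stage 5, without overlap, but 5 species were too few for the test. The parent gene UQCR-14 had no row among the members, so in the UQCR-14L row a paralog and the parent gene cannot be told apart.

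D. melanogaster stands in rows of its own for complex V, under hyphenated symbols. At stage 2 it had 678 FPKM for ATPsyn-beta, 322 for ATPsyn-Cf6, 179 for ATPsyn-d, 143 for ATPsyn-gamma and 99.5 for ATPsyn-b. Each value lay inside the stage 2 range of the gene of like name in the other species. For complex II it had 49.1 FPKM for SdhC, 43.3 for SdhA and 29.4 for SdhB at stage 2.

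Across species, the median change of the members ran from 0.96 in D. erecta to 2.35 in D. ananassae (median of 12 species 1.43), and it exceeded the median of all genes, 0.22 to 0.47, in all 12. Between 27 of 57 members (D. erecta) and 47 of 57 members (D. ananassae) were at least 2-fold higher at stage 5. Of all genes tested, 32.7% (D. simulans) to 39.5% (D. miranda) were. From 0 to 5 members were at least 2-fold lower, a count without an all-gene share here. Complex IV had median changes of 1.40 in D. sechellia to 2.69 in D. ananassae, and complex V of 1.27 in D. simulans to 2.24 in D. ananassae. Complex II varied most, from -1.28 in D. simulans to 1.69 in D. miranda, and its median was below 0 in 6 of the 12 species. The median change was 1.14 to 1.67 in the 5 species mixed with D. melanogaster RNA at both stages, 0.96 to 2.35 in 4 unmixed species and 1.55 to 1.91 in the 2 total RNA species.

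**Figure D4:**
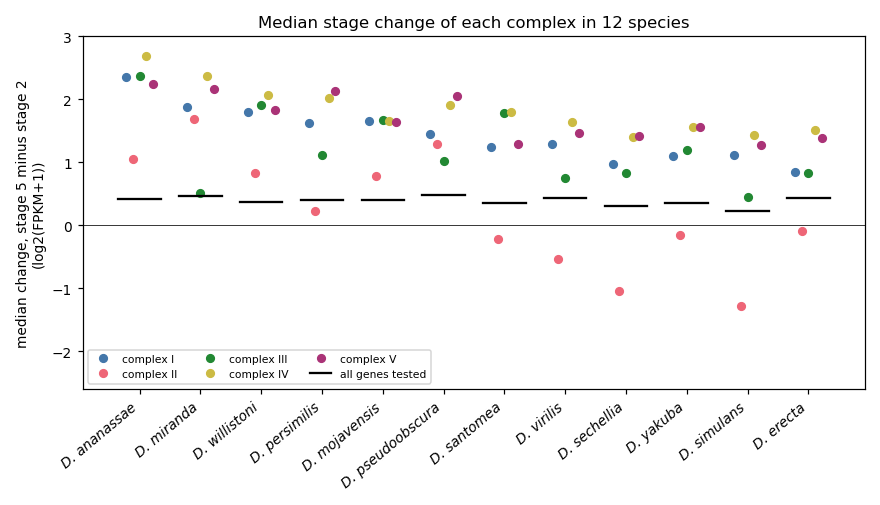
Median change of the tested members of each complex (coloured points) and of all genes tested (black bars) in 12 species, as stage 5 minus stage 2 in log2(FPKM+1) on the deposited scale, with species ordered by the median of all members. Complexes I, IV and V lie above the all-gene bar in each species, and complex II runs from -1.28 in D. simulans to 1.69 in D. miranda.

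The species of the melanogaster subgroup (D. erecta, D. mauritiana, D. santomea, D. sechellia, D. simulans and D. yakuba) were compared with those of the obscura group (D. miranda, D. persimilis and D. pseudoobscura) in their stage change. Of 45 members with enough species, 17 differed (37.8%) at a limma adjusted p under 0.05, against 24.5% of 6440 genes. In all 17 the change was smaller or more negative in the melanogaster subgroup, a direction that 14.6% of all genes were called for. The median difference, melanogaster subgroup minus obscura group, was -0.60 over the members and -0.16 over all genes. In 19 of the 45 members, 16 of them called, every melanogaster subgroup species lay below every obscura species, against 18.7% of all genes.

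ATPsynC differed most. Its change was -1.44 ± 0.59 in the melanogaster subgroup (n = 5) and 1.34 ± 0.31 in the obscura group (n = 3), a difference of -2.78 (limma adjusted p = 0.000489). In FPKM it had 268 to 549 at stage 5 and 960 to 1457 at stage 2 in the melanogaster subgroup, against 923 to 3235 at stage 5 and 453 to 1030 at stage 2 in the obscura group. The mRNA was thus lower at stage 5 in each of the 5 melanogaster subgroup species and higher in each of the 3 obscura species, and D. ananassae, D. mojavensis, D. virilis and D. willistoni were also higher at stage 5.

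Opposite mean directions were also seen for ND-B14.5A, an accessory subunit of complex I, at -0.29 ± 0.32 in the melanogaster subgroup (n = 5) and 1.99 ± 0.29 in the obscura group (n = 2), a difference of -2.28 (limma adjusted p = 0.00293). ND-ACP changed by -0.99 ± 0.59 in the melanogaster subgroup (n = 5) and 1.19 ± 0.94 in the obscura group (n = 3), a difference of -2.18 (limma adjusted p = 0.00836). ND-51 changed by -0.92 ± 0.28 and SdhB by -0.40 ± 0.65 in the melanogaster subgroup, against 0.22 ± 0.26 for ND-51 and 1.09 ± 0.56 for SdhB in the obscura group, with adjusted p-values of 0.0145 and 0.0247 by limma. ND-B8 changed by -0.0013 ± 0.25 in the melanogaster subgroup, where it was near 0 FPKM in most species, and by 2.03 ± 0.29 in the obscura group.

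For SdhA, the change was -1.31 ± 0.52 in the melanogaster subgroup (n = 6) and 8.6e-05 ± 0.33 in the obscura group (n = 3), a difference of -1.31 (limma adjusted p = 0.0222). For the other 10 of the 17 members both clades moved upward, less so in the melanogaster subgroup. ATPsynF had a mean change of 0.80 in the melanogaster subgroup against 2.13 in the obscura group, ND-B17.2 had 0.49 against 1.70, ATPsynD 1.39 against 2.30, COX4 1.46 against 2.28 and COX5A 1.43 against 2.21. The differences of ND-24, ND-B22, ND-23, ATPsynO and ATPsyndelta were -1.18, -1.005, -0.98, -0.60 and -0.50, in that order. ATPsynO, ATPsyndelta, COX4 and ND-24 were called in 2, 3, 6 and 7 of the 13 alternative settings, and the other 13 members in 9 to 13 of them. Most of these settings only left out 1 species, and quantile normalization alone changed the scaling. After it those named were not called, nor were SdhB (-0.53, limma adjusted p = 0.432), ATPsynD (-0.42, 0.140), COX5A (-0.65, 0.113) and SdhA (-0.81, 0.0707).

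**Figure D5:**
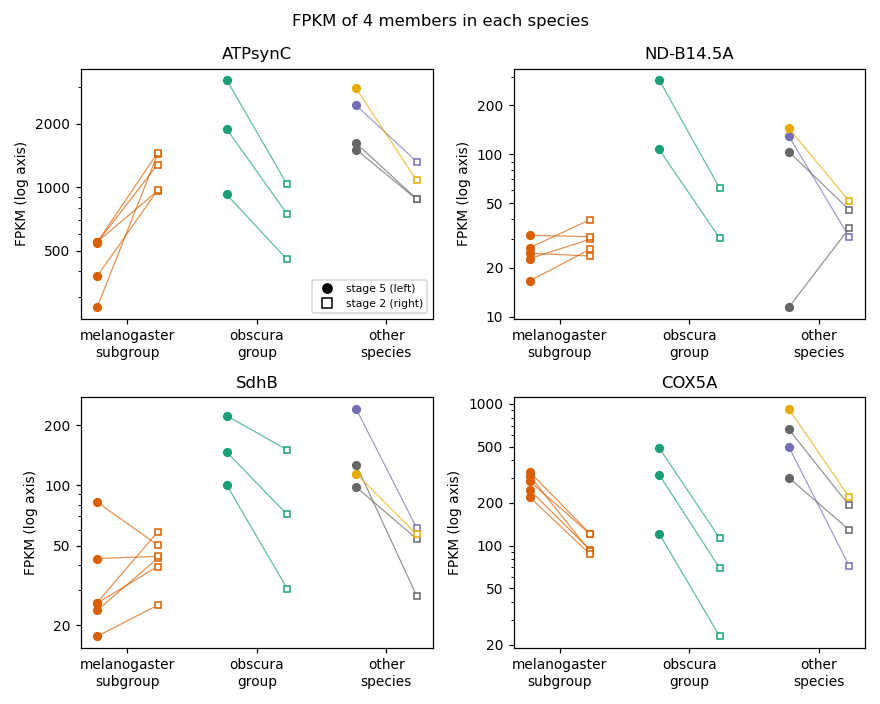
FPKM (log axis) of ATPsynC, ND-B14.5A, SdhB and COX5A in each species at stage 5 (filled circles, left) and stage 2 (open squares, right), with lines joining the stages of a species, for the melanogaster subgroup, the obscura group and the other species. ATPsynC runs from 268 to 549 FPKM at stage 5 against 960 to 1457 FPKM at stage 2 in the melanogaster subgroup, and is higher at stage 5 in every obscura species.

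D. miranda and D. pseudoobscura differ from the melanogaster subgroup also in molecule, in crosses and in the title of their stage 5 embryos, so for these 2 species clade and those features cannot be told apart. D. persimilis shares the polyA RNA and the stage title of the others. From stage 2 to stage 5, the total FPKM of genes below 100000 rose 1.99 to 2.68 times in the melanogaster subgroup. In the obscura group it rose 2.65 to 3.10 times. The clades were not compared at the same total. The part of molecule, crosses, title and column totals in the clade differences was not tested. Without D. persimilis 7 of 46 members differed, and without D. miranda or D. pseudoobscura 11 of 47 each. The share of all genes called in these smaller fits is not given, so the lower counts are not a result about the members.

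At stage 2 alone, with columns centred on their medians, 6 of 45 members differed between the clades (13.3%), below the 19.8% of 6209 genes. UQCR-6.4 (1.32), ND-B16.6 (0.83), ND-42 (0.78) and ND-B14.7 (0.74) were higher in the melanogaster subgroup. ND-B8 (-3.98) and UQCR-Q (-0.82) were lower there, and 3 of 46 members differed without D. pseudoobscura.

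Of 9 tested subunits whose symbols do not follow the member rule, 7 were called higher and 0 lower, against 30.9% of all genes called higher, with a median change of 1.48. The 2 not called were blw, the alpha subunit of ATP synthase (0.70 ± 1.21, n = 13), and Cyt-c-d, a cytochrome c whose median was 0.383 FPKM at stage 5 and 0.0740 FPKM at stage 2. Cyt-c-p, the cytochrome c that carries electrons between complexes III and IV, had a median of 650 FPKM at stage 5 and 212 FPKM at stage 2 and changed by 1.81 ± 0.22 (n = 13, limma adjusted p = 1.94e-11), upward in all 13 species. The complex IV subunit cype changed by 2.15 ± 0.50 (n = 11), the largest value of that list. After quantile normalization or at the same total, limma called 0 of the 9, with 4 higher and 1 lower, and 5 higher and 1 lower, at an unadjusted p under 0.05. Of the 13 subunits of the mitochondrial genome, D. melanogaster at stage 2 alone had values here, from 12.8 FPKM (mt:ND2) to 1379 FPKM (mt:CoIII).

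Other mitochondrial genes were counted against the same background of 30.9% of all genes called higher and 16.5% called lower. Of 12 tested genes listed as citric acid cycle or related enzymes, 1 was called higher and 3 lower, with a median change of -0.56. Of those called lower, Mdh2 is of the cycle itself, while Idh and l(1)G0334 are related enzymes. The citrate synthase gene kdn rose by 1.88 ± 0.56 (n = 11). Idh fell to a median of 3.84 FPKM at stage 5, against 173 FPKM at stage 2, a change of -4.69 ± 0.92 (n = 13), and Mdh2 changed by -1.85 ± 2.20 (n = 13).

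Of 18 carriers and import factors tested, 3 were called higher and 4 lower, with a median change of 0.15 that turned negative under the 3 other scalings. The outer membrane channel gene porin had a median of 1664 FPKM at stage 5 and 431 FPKM at stage 2, and the ADP/ATP carrier gene sesB 3229 FPKM at stage 5 and 878 FPKM at stage 2, with changes of 1.90 ± 0.34 and 1.81 ± 0.32 (n = 13 each). The matrix chaperones Hsp60 and Hsc70-5 changed by -3.16 ± 1.56 (n = 11) and -2.97 ± 1.63 (n = 13). Of 19 regulators of mitochondrial genes, DNA or shape, limma called 0 higher and 7 lower (3 and 9 at an unadjusted p under 0.05), among them srl, a homologue of the PGC-1 coactivators (-2.31 ± 1.08, n = 12), and the fusion gene Marf (-1.99 ± 0.82, n = 12). Of 4 assembly factors tested, limma called 0 higher (1 at an unadjusted p under 0.05) and 1 lower, Surf1, which serves complex IV (-1.27 ± 1.21, n = 13). At the same total, 8 citric acid cycle or related enzymes, 9 carriers or import factors and 15 regulators were called lower, where 41.8% of all genes were.

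Stage markers stood as the labels give them, with 7 of 7 zygotic genes called higher and 5 of 5 maternal genes called lower at stage 5. Summed markers of other tissues were 0.0620 to 9.12 FPKM at stage 5 and 0.0223 to 6.37 FPKM at stage 2 for the eggshell, and 0 to 5.15 FPKM at stage 5 and 0 to 3.04 FPKM at stage 2 for the gut. Muscle markers summed to 0.284 to 145 FPKM at stage 5 and 0 to 61.8 FPKM at stage 2, neuron markers to 0.127 to 122 FPKM at stage 5 and 0.0149 to 3.30 FPKM at stage 2, and yolk and fat body markers to 0.304 to 20.7 FPKM at stage 5 and 0 to 5.92 FPKM at stage 2. Testis markers summed to 0.435 to 2902920 FPKM at stage 5 and 0.355 to 72.0 FPKM at stage 2, and the top value was that of the testis gene comr in 1 column, D. persimilis at stage 5. Their part in the change of the members was not tested.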

How the data were processed

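The submitters' processing notes name the tools cutadapt, TopHat2, Cufflinks, Cuffnorm and Cuffdiff, without order or role. As to versions and genome builds, neither is given in the sources used here. The deposited values are 1 number per gene, species and stage, taken as FPKM of the authors from these tools and from the range of the values. In the wider table each value was taken to belong to the header name 1 column to its right; all 3764 genes shared with the authors' other table then had the same values. The tables' D. melanogaster stage 5 columns, 2 in all, belong to no sample used here and were left out. The depth is unknown, so no counting interval is given, and a value of 0 can be a failed estimate.

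Within-species changes of log2(FPKM+1), with a pseudocount of 1, were fitted with limma 3.58.1 in R 4.3.3 (eBayes with trend, two-sided) for 7225 genes with at least 10 species and a mean of at least 1 FPKM. Clades were compared in the same way, with at least 5 and 2 species, at an adjusted p under 0.05. p-values treat species as independent, except under phylogenetic least squares (ape 5.8.1, Grafen branch lengths) or 1 mean per clade. On simulated data for the stage 5 against stage 2 fit, with 200 of 7225 genes changed by 1.5, 95.5% were called and 0 unchanged genes were. The simulated noise was independent between species, had the same SD for every gene, and held no shift of whole columns. The changed genes were drawn only from those above a set stage 2 level. The simulation therefore does not measure errors from shared ancestry, unequal spread or scaling.

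Members and lists were chosen with earlier results of these data known. Named genes were, per complex, the 3 largest and 2 smallest changes and the 2 highest medians at each stage, members with a negative mean change, up to 8 clade differences by p, paralogs in at least 3 species, core subunits, and the 2 largest called changes per list and direction; other named genes are said to be chosen after their values were seen, or account for a count. Alternatives were other pseudocounts, filters, scalings and species sets. Near-identical copies can share reads, so values of a subunit and its paralog are uncertain.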

Additional observations from a re-analysis of the deposited data

Results flagged for a closer look

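Within the melanogaster subgroup, the stage change of 38 named members was checked for a species far from the rest, and chance alone gives such a value in about 1 in 20 groups. In 3 members 1 of 5 species stood apart. COX7A changed by 0.13 in D. sechellia, against 1.23 to 1.503 in the other 4 species. ND-42 changed by 0.19 in D. erecta, against 1.70 to 1.98 in the others. ND-51 changed by -1.41 in D. santomea, against -0.87 to -0.66 in the others.

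The stage change of 17 members differed between the melanogaster subgroup and the obscura group by limma, always with the smaller or more negative change in the melanogaster subgroup. The differences, melanogaster subgroup minus obscura group, were -2.78 for ATPsynC, -1.33 for ATPsynF, -0.91 for ATPsynD, -0.60 for ATPsynO and -0.50 for ATPsyndelta in complex V. In complex I they were -2.28 for ND-B14.5A, -2.18 for ND-ACP, -2.03 for ND-B8, -1.21 for ND-B17.2, -1.18 for ND-24, -1.14 for ND-51, -1.005 for ND-B22 and -0.98 for ND-23. They were -1.49 for SdhB and -1.31 for SdhA in complex II, and -0.81 for COX4 and -0.78 for COX5A in complex IV. The part of molecule, of crosses, of stage 5 titles and of column totals in these differences was not tested.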

How the results depend on the processing

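Scaling moved the results most. Beside 42 members higher, 0 lower and a median change of 1.42 as deposited, centring gave 32 higher and 2 lower, quantile normalization gave 0 higher, 6 lower (ATPsynC, ND-51, ND-75, ND-ACP, SdhA and SdhD) and a median of 0.28, and the same total gave 0 higher, 7 lower (those and UQCR-C1) and a median of 0.17. Phylogenetic least squares gave 20 higher, all among the 42. Requiring values in all 13 species left 3 members, with 1 higher and a median of 0.52. The adjusted p alone gave 2 lower, species mixed at both stages 1 lower (SdhA), and unmixed species 2 lower (ND-51 and ND-ACP). Leaving out 1 species at a time gave 41 to 45 higher, 0 lower and medians of 1.34 to 1.52.

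Of the 57 tested members, 5 had a mean change below 0 as deposited and 7 after centring. After quantile normalization 14 were below 0, and at the same total 23 were, counts without an all-gene share here. Only the named members that turned direction are listed next. ATPsynC was at -0.32 after centring, -1.65 after quantile normalization, -1.29 at the same total, -0.57 in mixed species, -0.19 in polyA RNA species, -0.0068 without D. virilis and -0.077 to 0.29 with 1 species left out. After quantile normalization ATPsynbeta was at -0.20, ATPsyngamma at -0.45, ND-42 at -0.090, SdhB at -0.11, UQCR-6.4 at -0.20 and UQCR-C1 at -0.80. At the same total ATPsyngamma was at -0.41, ND-23 at -0.12, ND-24 at -0.076, ND-42 at -0.61, ND-B14.5A at -0.78, ND-B17.2 at -0.082, SdhB at -0.78, SdhC at -0.061, UQCR-6.4 at -0.28 and UQCR-C1 at -1.05. UQCR-C1 was at -0.084 after centring, ND-42 at -0.016 with 1 mean per clade and -0.30 in unmixed species, SdhB at -0.070 in mixed species, and ND-ACP at 0.15 under phylogenetic least squares and -0.26 to 0.13 with 1 species left out. The causes were not tested.

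For the clades, 10 of 45 members differed in stage change after quantile normalization. With 1 species left out, 7 (of 46) to 19 (of 53) differed in stage change and 3 to 7 (of 46 each) at stage 2. The share of all genes called in these fits is not given, so these counts are not a result about the members. No paired analysis was possible because the columns combine the embryos of a group and carry no embryo numbers; the stages were paired by species, and without that pairing 38 members were called higher. Depth limits are unknown.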
